A study of Mus musculus with 14 samples.

Results

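The genes described here encode the proteins of the large subunit of the cytosolic ribosome in dentate gyri lacking the amyloid precursor protein and in wildtype dentate gyri. The members are the protein-coding rows of the deposited count tables whose symbols start with Rpl and a digit, together with Rplp0, Rplp1 and Rplp2. Rows with -ps names, which mark pseudogenes and retrotransposed copies, were left out. The rule found 52 of the 55291 rows, and 49 of the 52 passed the filter on low counts. Rpl3l, Rpl10l and Rpl39l did not pass it. The members lie on 18 chromosomes, and Rpl10, Rpl36a and Rpl39 lie on the X chromosome.

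The large subunit holds the catalytic centre that joins amino acids, the tunnel through which the nascent chain leaves, and a flexible stalk that recruits translation factors. Its proteins are made in the cytoplasm, carried into the nucleolus and assembled on ribosomal RNA, so cells make them in near-equal numbers. In mammals their mRNAs are short and abundant, begin at a C that opens a run of pyrimidines (a terminal oligopyrimidine tract), and are translated under the control of nutrient and growth signalling. In neurons these mRNAs are also found in dendrites and axons. Retrotransposition of such abundant mRNAs has left many processed copies in mammalian genomes, which makes the source of short reads harder to assign.

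Polyadenylated RNA was measured by RNA sequencing of single dentate gyri cut from mouse entorhino-hippocampal slice cultures, which keep the input from entorhinal cortex to the dentate gyrus in a dish. The APPko group held 8 libraries from APP-/- mice, the line of Li and colleagues, and the wildtype group held 6 libraries from C57BL/6J mice (APP+/+). Cultures were prepared at postnatal day 4 to 5 and kept for at least 18 days, per the labels' protocols. Biological replicates is the labels' term, but they do not tie cultures to animals, and p-values here compare the genotypes with the scatter of these libraries. In such bulk samples, fewer cells of a type and less RNA per cell cannot be told apart.

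Total counts lay between 20298058 and 31031126 in the APPko libraries and between 16686909 and 29713323 in the wildtype libraries. App itself, on chromosome 16, lay between 182 and 231 CPM (library-size units scaled by edgeR's TMM method) in the APPko libraries and between 679 and 964 CPM in the wildtype libraries, so the labels and the targeted gene went together. Wildtype libraries 2 and 3 stood apart, with TMM scaling factors of 0.852 and 0.847 against 0.976 or more in the other 12 libraries. Counts of called members, copies and genes of the same pathway are given with and without them, and so is a log2 change or a median that moved by over 1.5 times. Other counts, such as those of markers, at an unadjusted p or by coding length, rest on all 14 libraries. Microglial markers (2 of 10 called higher, 0 lower) summed to between 643 and 1153 CPM in APPko and to between 448 and 915 CPM in wildtype libraries. Granule neuron markers (0 of 7 called higher, 3 lower) summed to between 477 and 834 CPM in APPko and to between 623 and 1239 CPM in wildtype libraries. Dividing-cell markers (0 of 4 called higher, 2 lower) summed to between 19.1 and 37.3 CPM in APPko and to between 25.6 and 51.6 CPM in wildtype libraries. All 21 markers of these 3 lists passed the low-count filter. In the lists for astrocytes, oligodendrocytes, oligodendrocyte precursors, vascular cells and fibroblasts, and interneurons, 0 markers were called higher and 0 lower. Over all tested genes 0.944% were called higher and 1.41% lower. The part of the marker differences in the results below was not tested.

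Large subunit mRNAs were higher in APPko dentate gyri for 9 of the 49 tested members and lower for 0, by edgeR's quasi-likelihood test with Benjamini-Hochberg adjustment over all 22150 tested genes and a threshold of 0.05. Over all tested genes 0.944% were called higher and 1.41% lower by the same rule. Among them were Rpl10, Rpl11, Rpl13, Rpl14, Rpl18, Rpl27, Rpl29 and Rpl32, with log2 changes (APPko over wildtype) between 0.49 and 0.73. The log2 change was above 0 for 45 of the 49 members, against 48.3% of all tested genes. Its median was 0.29 over the members and -0.01 over all tested genes. At an unadjusted p under 0.05, 25 members were higher and 0 lower, where 9.07% of all tested genes were higher and 11.4% lower. The number of members called moved with single libraries. It was 3 without APPko library 2 (0.172% of all tested genes called higher), 1 without APPko library 5 (0.101%) and 2 without APPko library 7 (0.151%). It was 3 without wildtype library 2 (0.202%) and 2 without wildtype library 3 (0.161%), but 18 without wildtype library 1 (1.7%) and 14 without wildtype library 4 (3.26%). Without both wildtype libraries 2 and 3, 1 member (Rpl18) was called, where 0.08% of all tested genes were called higher, and the median log2 change was 0.22 over the 51 members tested there and 0.25 over the 49. With a trend over GC content removed 4 members were called higher (0.357% of all tested genes), and with DESeq2 18 (3.33%).

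**Figure D1:**
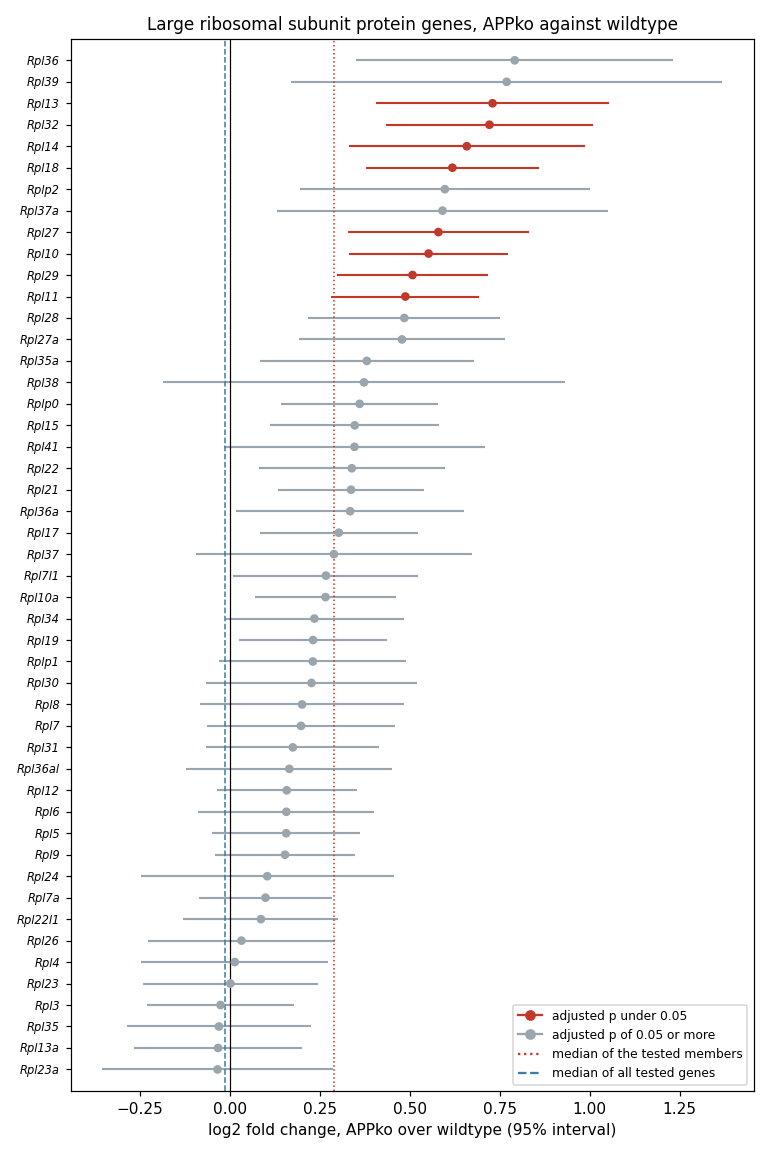
Log2 fold change of 48 of the 49 tested large subunit protein genes, APPko over wildtype, with 95% intervals from the edgeR fit over 8 APPko and 6 wildtype libraries. The 8 plotted members past the threshold (red) lie between 0.49 and 0.73, the median of the 49 members (dotted line) at 0.29 and the median of all tested genes (dashed line) at -0.01.

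Rpl10 and Rpl11 sit at well-known functional sites. Rpl10 joins the subunit last, in the cytoplasm, and reaches towards the catalytic centre. It lies at chrX:74270812-74273135 (+ strand; coordinates of genes are those of the deposited GENCODE annotation, build GRCm38). Rpl10 had 391 CPM at its lowest, 413 at its median and 477 at its highest in APPko libraries, against 243, 271 and 354 CPM in wildtype libraries. All 8 APPko libraries lay above all 6 wildtype libraries. Its log2 change was 0.55 ± 0.11 (SE), with an edgeR adjusted p of 0.0207.

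Rpl11 (chr4:136028265-136053428, - strand) binds the 5S ribosomal RNA together with Rpl5, and the free complex of these proteins holds the p53 ligase Mdm2 in check when ribosome assembly is disturbed. Rpl11 had 376, 426 and 506 CPM at its lowest, median and highest in APPko libraries, against 273, 303 and 354 CPM in wildtype libraries. The genotypes did not overlap, and the log2 change was 0.49 ± 0.10 (SE, edgeR adjusted p = 0.0252). Its partner Rpl5 ranged between 384 and 486 CPM in APPko and between 343 and 467 CPM in wildtype libraries, so the genotypes overlapped. The log2 change of Rpl5 was 0.16 ± 0.10 (SE) and it was not called (edgeR adjusted p = 0.387).

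The other called members described here encode proteins that bacterial ribosomes lack. Rpl18 (chr7:45715457-45720836, + strand) had the smallest p of all members. It had 212, 236 and 278 CPM at its lowest, median and highest in APPko libraries, against 112, 163 and 187 CPM in wildtype libraries. No wildtype library reached the lowest APPko library. The log2 change was 0.62 ± 0.11 (SE, edgeR adjusted p = 0.0184), and 0.48 without wildtype libraries 2 and 3 (adjusted p = 0.0499). Rpl18 was called with each of the 14 libraries left out in turn, the single member for which this held.

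Rpl32 (chr6:115805505-115808747, - strand) had the highest level per length of the tested members in APPko libraries, as given further on. It had 604, 767 and 893 CPM at its lowest, median and highest in APPko libraries, against 325, 465 and 572 CPM in wildtype libraries. The genotypes did not overlap (log2 change 0.72 ± 0.14 SE, edgeR adjusted p = 0.0207).

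Rpl27 (chr11:101442298-101445529, + strand) had 382, 446 and 534 CPM at its lowest, median and highest in APPko libraries, against 235, 311 and 354 CPM in wildtype libraries. Rpl29 (chr9:106429454-106431568, + strand), known also as a heparin-binding protein, had 251, 279 and 358 CPM in APPko libraries, against 178, 203 and 220 CPM in wildtype libraries. Both were without overlap between the genotypes. The log2 change was 0.58 ± 0.12 (SE, edgeR adjusted p = 0.0263) for Rpl27 and 0.51 ± 0.10 (SE, edgeR adjusted p = 0.0246) for Rpl29.

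Rpl13 and Rpl14 were called although their ranges overlapped. Rpl13 (chr8:123102350-123105244, + strand) had 589, 798 and 891 CPM at its lowest, median and highest in APPko libraries, against 309, 439 and 684 CPM in wildtype libraries. Wildtype library 4, at 684 CPM, lay above 2 APPko libraries. Its log2 change of 0.73 ± 0.15 (SE, edgeR adjusted p = 0.0276) was the largest of the called members. Rpl14 (chr9:120571444-120574654, + strand) had 376, 454 and 521 CPM in APPko libraries, against 160, 306 and 379 CPM in wildtype libraries. Wildtype library 4, at 379 CPM, lay just above the lowest APPko library, and wildtype library 2 was the lowest of all. The log2 change of Rpl14 was 0.66 ± 0.16 (SE, edgeR adjusted p = 0.0373). It was called in 5 of the 14 fits that left out 1 library.

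In all, 7 members had every APPko library above every wildtype library, where 0.506% of all tested genes did. Without wildtype libraries 2 and 3 the log2 changes of the 9 called members were between 0.42 and 0.59, and the edgeR adjusted p of those other than Rpl18 lay between 0.0634 and 0.102. Nearest to the threshold among the members not called were Rpl28 (log2 change 0.49, edgeR adjusted p = 0.0504) and Rpl36 (log2 change 0.79, edgeR adjusted p = 0.0524). Without wildtype libraries 2 and 3 the edgeR adjusted p of Rpl28 was 0.202. The log2 change of Rpl36 was 0.50 without wildtype libraries 2 and 3 (edgeR adjusted p = 0.169).

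**Figure D2:**
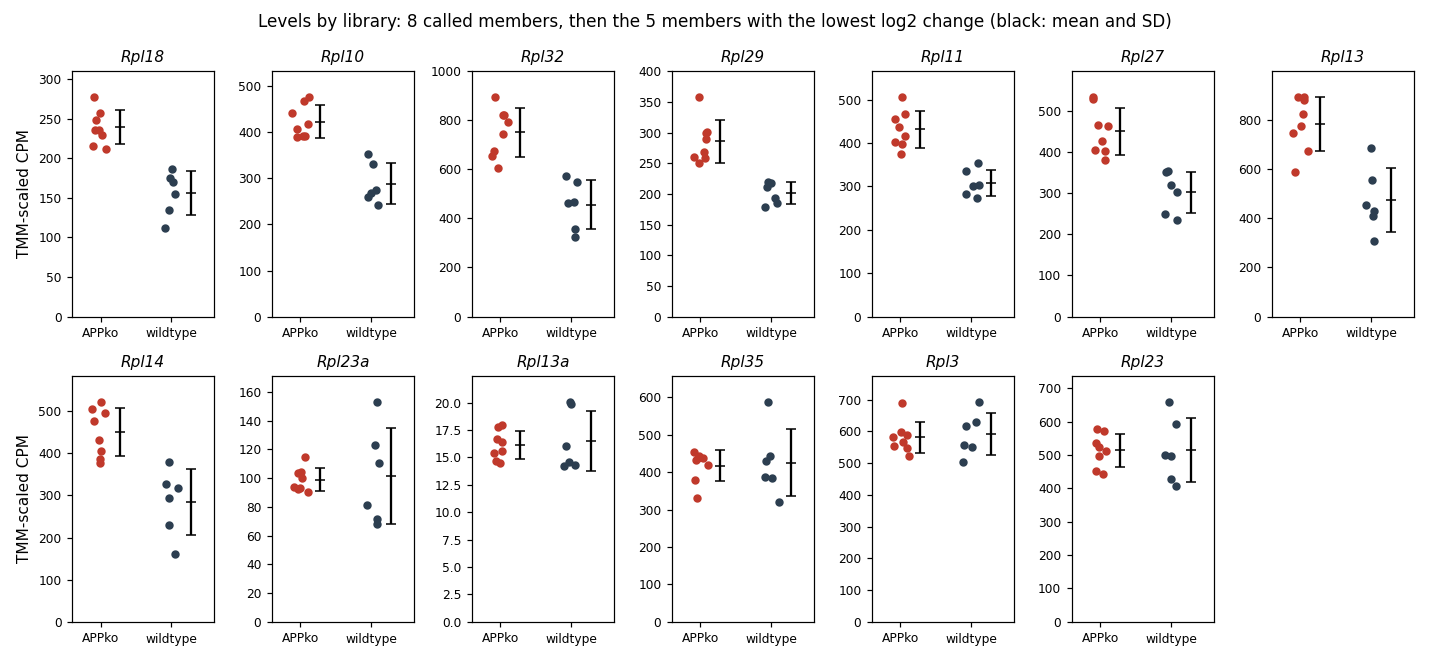
TMM-scaled CPM of 8 called members and the 5 tested members with the lowest log2 change, 1 point per library, with the mean and SD of each genotype in black (8 APPko, 6 wildtype libraries). In Rpl18, Rpl10, Rpl32, Rpl29, Rpl11 and Rpl27 the APPko points lie wholly above the wildtype points; in Rpl23a, Rpl13a, Rpl35, Rpl3 and Rpl23 the wildtype points spread over the APPko range.

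The stalk that recruits elongation factors is built from Rplp0, which anchors it, the acidic proteins Rplp1 and Rplp2, and Rpl12 at its base. None of the 4 was called, where 0.944% of all tested genes were called higher and 1.41% lower. Rplp0 had 504, 601 and 717 CPM at its lowest, median and highest in APPko libraries, against 391, 479 and 516 CPM in wildtype libraries. The lowest APPko library fell within the wildtype range. Its log2 change was 0.36 ± 0.10 (SE, edgeR adjusted p = 0.0677).

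Rplp2 ranged between 247 and 426 CPM in APPko and between 128 and 327 CPM in wildtype libraries (log2 change 0.60 ± 0.19 SE, edgeR adjusted p = 0.0916). Its log2 change was 0.32 without wildtype libraries 2 and 3. Rplp1 ranged between 441 and 601 CPM in APPko and between 379 and 649 CPM in wildtype libraries (log2 change 0.23 ± 0.12 SE, edgeR adjusted p = 0.304). Rpl12 ranged between 199 and 242 CPM in APPko and between 180 and 247 CPM in wildtype libraries (log2 change 0.16 ± 0.09 SE, edgeR adjusted p = 0.352). The wildtype range of Rplp1 and of Rpl12 reached above the highest APPko library. Leaving out wildtype libraries 2 and 3 gave log2 changes of 0.12 for Rplp1 and 0.10 for Rpl12.

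Of the 9 tested proteins that line or ring the exit of the tunnel, 0 were called, where 0.944% of all tested genes were called higher. A log2 change above 0 was seen in 7 of the 9 (48.3% of all tested genes), and the median was 0.18. Rpl39, a tiny protein inside the tunnel, had the largest of these log2 changes and a wide spread, with 85.4 to 216 CPM in APPko and 35.6 to 137 CPM in wildtype libraries (log2 change 0.77 ± 0.29 SE, edgeR adjusted p = 0.137). Its log2 change was 0.39 without wildtype libraries 2 and 3 (edgeR adjusted p = 0.445). Near the catalytic centre lie Rpl3, Rpl8 and Rpl10, of which Rpl10 was called. Rpl8 ranged between 226 and 293 CPM in APPko and between 159 and 310 CPM in wildtype libraries and was not called (log2 change 0.20, edgeR adjusted p = 0.422). The log2 change of Rpl8 was 0.04 without wildtype libraries 2 and 3.

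The 5 tested members with the lowest log2 change were Rpl23a, Rpl13a, Rpl35, Rpl3 and Rpl23, all within 0.04 of 0. Rpl3, which reaches towards the catalytic centre, had 523, 574 and 689 CPM at its lowest, median and highest in APPko libraries, against 505, 587 and 692 CPM in wildtype libraries. Rpl35, at the tunnel exit, had 331, 435 and 453 CPM in APPko libraries, against 320, 409 and 586 CPM in wildtype libraries. Rpl23, on the face that meets the small subunit, had 444, 519 and 577 CPM in APPko libraries, against 407, 499 and 658 CPM in wildtype libraries. In each of these 3 genes the wildtype range contained the APPko range. The 95% interval of the log2 change was -0.23 to 0.18 for Rpl3, -0.29 to 0.23 for Rpl35 and -0.24 to 0.25 for Rpl23, so changes of the size called in Rpl18 or Rpl32 lay outside it.

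Rpl23a, at the tunnel exit where the signal recognition particle docks, had 90.3, 97.0 and 115 CPM at its lowest, median and highest in APPko libraries, against 67.9, 96.2 and 153 CPM in wildtype libraries. The wildtype values fell on either side of most APPko values, with wildtype libraries 1, 2 and 3 at 111, 153 and 123 CPM and wildtype libraries 4, 5 and 6 at 71.8, 67.9 and 81.6 CPM. Its log2 change was -0.03 ± 0.15 (SE), and 0.26 without wildtype libraries 2 and 3. Processed copies held 40.4% of the counts of the Rpl23a family. With their counts added, an alternative chosen after seeing the data, the log2 change was 0.13. Rpl13a, which in human monocytes leaves the ribosome to silence inflammatory mRNAs, had 14.53, 15.98 and 17.95 CPM in APPko libraries, against 14.23, 15.30 and 20.02 CPM in wildtype libraries. Leaving out wildtype libraries 2 and 3, the log2 change was -0.11 for Rpl13a, -0.06 for Rpl35, 0.07 for Rpl3 and 0.05 for Rpl23.

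Genes on the other strand share exon bases with some of these members, and no source used here says whether strand was used in counting. Wdr38 shares 66.2% of the exon bases of Rpl35 and averaged 2.29 ± 0.41 CPM in APPko and 2.65 ± 0.57 CPM in wildtype libraries. Tlcd1 shares 59.7% of those of Rpl23a and averaged 16.9 ± 3.97 CPM in APPko and 13.6 ± 2.53 CPM in wildtype libraries (SD, n = 8 and 6). Of the called members, Rpl18 shares 9.23% of its exon bases with Sphk2 and Rpl32 shares 5.50% with Cand2.

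The paralogues that passed the low-count filter were Rpl22l1, Rpl7l1 and Rpl36al. None of them was called, where 0.944% of all tested genes were called higher. Rpl22l1, which shares 74.6% of its aligned coding bases with Rpl22, ranged between 81.9 and 110 CPM in APPko and between 75.4 and 114 CPM in wildtype libraries (log2 change 0.09, edgeR adjusted p = 0.684). Its log2 change without wildtype libraries 2 and 3 was 0.03. Rpl22 itself averaged 126 ± 13.3 CPM in APPko and 99.4 ± 21.7 CPM in wildtype libraries (SD, n = 8 and 6). Rpl7l1, a relative of Rpl7, ranged between 68.4 and 101 CPM in APPko and between 55.5 and 95.1 CPM in wildtype libraries (log2 change 0.27, edgeR adjusted p = 0.223). Both Rpl22l1 and Rpl7l1 were counted in every library. Rpl36al ranged between 3.74 and 5.10 CPM in APPko and between 3.04 and 4.46 CPM in wildtype libraries (log2 change 0.17, edgeR adjusted p = 0.531), while Rpl36a, with which it shares 87.7% of coding bases, averaged 233 ± 39.2 CPM in APPko and 185 ± 49.7 CPM in wildtype libraries (SD, n = 8 and 6).

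The 3 members that failed the low-count filter are paralogues used in other tissues, Rpl3l in heart and skeletal muscle, and Rpl10l and Rpl39l in testis. Rpl3l had at most 0.473 CPM in APPko and at most 0.789 CPM in wildtype libraries. Rpl39l had at most 0.711 CPM in APPko and at most 1.10 CPM in wildtype libraries. Rpl10l had 6 counts over all APPko libraries and 0 over all wildtype libraries. These levels were too low for a comparison.

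Per kilobase of the principal mRNA, Rpl32, Rpl41 and Rplp1 had the highest mean levels over all 14 libraries among the tested members. Rpl32 averaged 1451 CPM per kilobase in APPko and 880 CPM per kilobase in wildtype libraries. Rpl41, a peptide at the contact between the subunits and the shortest member, with a coding length of 75 bases, averaged 1228 CPM per kilobase in APPko and 966 CPM per kilobase in wildtype libraries. Rplp1 averaged 1098 CPM per kilobase in APPko and 936 CPM per kilobase in wildtype libraries. The order differed between the genotypes. In APPko libraries Rpl38, at 1107 CPM per kilobase, lay between Rpl41 and Rplp1. In wildtype libraries Rpl26 was highest, at 1008 CPM per kilobase, and Rpl32 lay below Rpl26, Rpl41 and Rplp1. These levels were far apart from those of the lowest tested members, although the proteins share one particle.

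The lowest per length were Rpl24, at a contact between the subunits, Rpl36al and Rpl13a. Rpl24 averaged 3.93 CPM per kilobase in APPko and 3.66 CPM per kilobase in wildtype libraries. Rpl36al averaged 8.47 CPM per kilobase in APPko and 7.54 CPM per kilobase in wildtype libraries. Rpl13a averaged 15.4 CPM per kilobase in APPko and 15.8 CPM per kilobase in wildtype libraries. All 3 share exon bases on their own strand with another annotated gene, and they were the members that shared at least 20% with one. The share was 47.0% of the exon bases of Rpl24 with Gm28037, 29.4% of those of Rpl13a with Gm45713 and 24.5% of those of Rpl36al with Gm49383. Gm28037, Gm45713 and Gm49383 each had a count of 0 in all 14 libraries. Processed copies held 90.7% of the counts of the Rpl24 family, 65.9% of those of the Rpl13a family and 49.6% of those of the Rpl36al family. Among the other tested members Rpl23a had the largest such share, at 40.4%, followed by Rpl41 at 14.2%. The counts of Rpl24, Rpl13a, Rpl36al and Rpl23a are therefore uncertain as measures of their mRNA. The part of the exons shared on the same strand in the counts of Rpl24, Rpl13a and Rpl36al was not tested.

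Summed over the 52 members, the libraries held 18706 ± 1629 CPM in APPko and 15112 ± 1544 CPM in wildtype (SD, n = 8 and 6). The sum ranged between 16491 and 20937 CPM in APPko libraries and between 13654 and 17974 CPM in wildtype libraries. The genotypes overlapped through a single wildtype library, wildtype 1 at 17974 CPM, which lay above 3 APPko libraries. Wildtype libraries 2 and 3 had the lowest sums, at 13654 and 14030 CPM, and the other 3 lay between 14513 and 15392 CPM. As a share of total counts, members held 1.77 to 2.14% in APPko and 1.16 to 1.83% in wildtype libraries.

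The ratio of the large subunit sum to that of the small subunit protein genes varied less. It was 1.31 ± 0.03 in APPko and 1.34 ± 0.05 in wildtype libraries (SD, n = 8 and 6). Small subunit sums ranged between 12891 and 16074 CPM in APPko and between 9887 and 13947 CPM in wildtype libraries. The share of counts on mitochondrially encoded genes, a gross sign of RNA quality, was 4.77 to 6.77% in APPko and 5.25 to 7.34% in wildtype libraries. Its part in the differences was not tested.

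**Figure D3:**
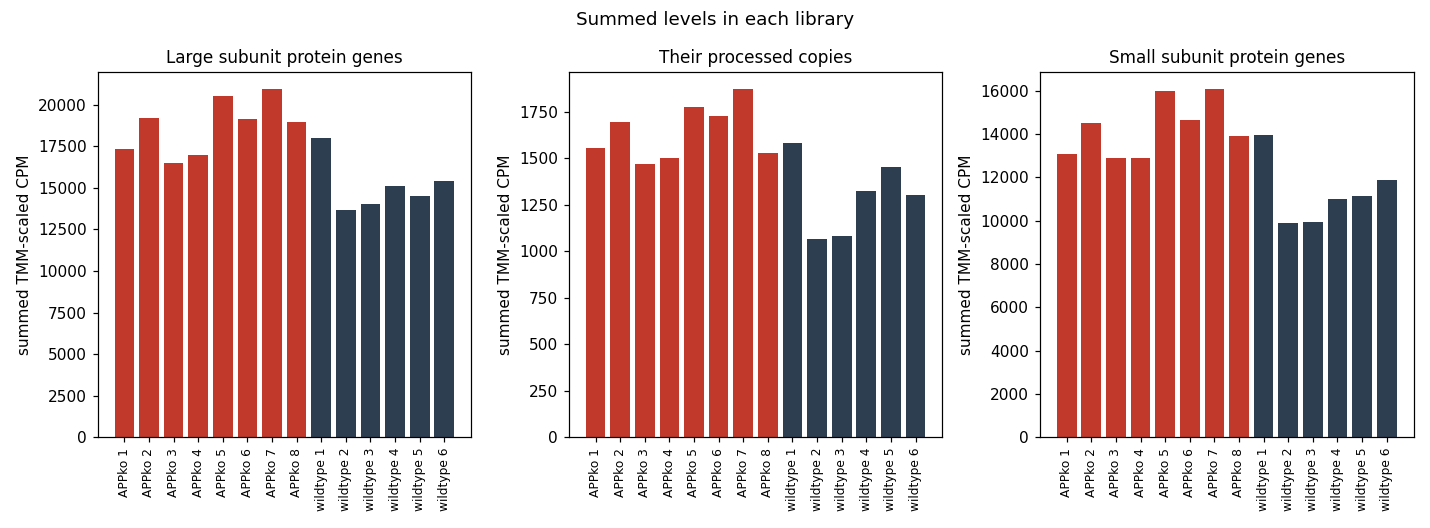
Summed TMM-scaled CPM in each of the 8 APPko (red) and 6 wildtype (dark) libraries of the 52 large subunit protein genes (left), of their processed copies (middle) and of the small subunit protein genes (right). In each panel wildtype libraries 2 and 3 are the lowest, and wildtype 1 reaches into the APPko range.

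The processed copies were examined because reads may fit more than 1 place. How such reads were counted is not given, so the copies cannot show what part they have in the members' counts. Comparison of the members' coding sequences with the transcripts of the reference found 1002 copies in the count tables, at 85% identity or more over 50% or more of the coding length. Copies with a match of at least 98% identity existed for 42 of the 49 tested members. A total of 352 copies passed the low-count filter, of which 13 were called higher in APPko and 0 lower, where 0.944% of all tested genes were called higher and 1.41% lower. Of the 352, 292 had a log2 change above 0, with a median of 0.31. The 13 came to 5 without wildtype library 3 (0.161% of all tested genes called higher) and to 0 without wildtype libraries 2 and 3 (0.08%), where the median was 0.18. They came to 27 without wildtype library 4 (3.26%) and to 20 without wildtype library 1 (1.7%). They came to 4 or 5 without wildtype library 2 or without APPko library 1, 2, 4, 5, 6 or 7 (0.101% to 0.422%), and to 7 without wildtype library 6 (0.812%). Of the tested copies, 8 of the 139 with at least 98% identity to their parent were called higher, 5 of the 164 with 93 to under 98%, and 0 of the 49 with 85 to under 93%. The median log2 change was 0.37 in the class nearest to its parents, 0.28 in the middle class and 0.18 in the most diverged class. These medians were 0.21, 0.16 and 0.03 without wildtype libraries 2 and 3.

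Copies of called members were among those that rose, and so were copies of other members. Rpl10-ps3, whose coding part is 100% identical to that of Rpl10, ranged between 5.37 and 13.2 CPM in APPko and between 2.05 and 6.22 CPM in wildtype libraries (log2 change 1.42 ± 0.26 SE, edgeR adjusted p = 0.0184). Gm7536, 100% identical to Rpl27a, ranged between 7.69 and 12.4 CPM in APPko and between 3.72 and 6.71 CPM in wildtype libraries, without overlap (log2 change 0.85 ± 0.15 SE, edgeR adjusted p = 0.0171). Gm10132, 99.8% identical to Rpl23a, ranged between 25.9 and 40.7 CPM in APPko and between 17.7 and 23.6 CPM in wildtype libraries, again without overlap (log2 change 0.67 ± 0.12 SE, edgeR adjusted p = 0.0182). Its parent Rpl23a had a log2 change of -0.03. Of the 13 called copies, 5 had a called parent.

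Among the 97 tested copies that are named after a member, 8 were called higher and 0 lower. The shares over all tested genes were 0.944% higher and 1.41% lower. The 8 included Rpl10-ps3, Rpl9-ps6, Rpl13-ps3, Rpl13a-ps1, Rpl14-ps1, Rpl15-ps5 and Rpl36-ps3. Without wildtype libraries 2 and 3, 0 of the 97 copies were called, where 0.08% of all tested genes were called higher. The most abundant of them was Rpl9-ps6, with 39.0 ± 6.09 CPM in APPko and 25.1 ± 6.27 CPM in wildtype libraries (SD, n = 8 and 6). Rpl38-ps2 followed with 22.6 ± 7.21 CPM in APPko and 15.8 ± 9.12 CPM in wildtype libraries and was not called (edgeR adjusted p = 0.336). Rpl3-ps1, whose parent Rpl3 is among the lowest members, had 9.68 ± 1.24 CPM in APPko and 10.7 ± 1.90 CPM in wildtype libraries (log2 change -0.13).

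The summed copies of a family followed their parent. All 48 tested members with copies had copies at 1 CPM or more in wildtype, and in 44 of the 48 families both parent and copies had a higher mean in APPko. Across the families Pearson's r of the log2 ratios of means was 0.80 and Spearman's rho 0.80 (n = 48 families, which share the same 14 libraries and may share reads). Rpl13a and Rpl23a departed from this, since their copies were higher in APPko by 0.38 and 0.34 on the log2 scale of ratios of means while the parents stood at -0.03. Copies took 8.06 ± 0.26% of all family counts in APPko and 7.91 ± 0.71% in wildtype libraries (SD, n = 8 and 6). When the counts of all copies were added to their parents, an alternative chosen after seeing the data, 9 members were called higher (0.844% of all tested genes), and they were the same 9. With so small a share of counts on copies, adding them could move most members little.

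**Figure D4:**
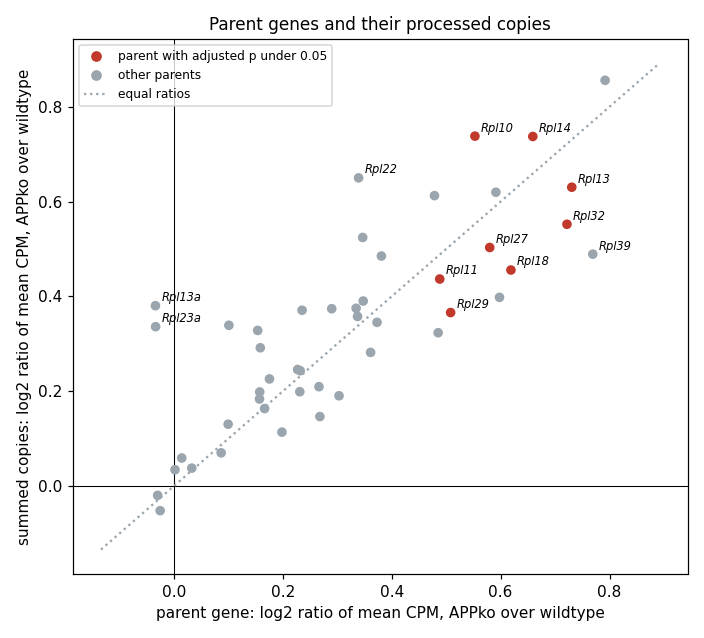
Log2 ratio of mean CPM, APPko over wildtype, of each parent gene (horizontal axis) and of its summed processed copies (vertical axis) for 47 families, with the line of equal ratios dotted and called parents in red. Most families lie near the line with both ratios above 0, while Rpl13a and Rpl23a have parents at -0.03 and copies at 0.38 and 0.34.

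Members with short coding sequences varied more between libraries of one genotype. The 12 tested members with a coding length under 350 bases had a median SD of 17.8% of the mean in APPko and 30.2% of the mean in wildtype libraries. The 22 members of 350 to under 600 bases had 9.89% in APPko and 17.4% in wildtype libraries, and the 15 members of 600 bases or more had 10.8% in APPko and 15.2% in wildtype libraries. Of the short class 0 were called, against 6 of the middle and 3 of the long class, where 0.944% of all tested genes were called higher. Without wildtype libraries 2 and 3 the single member called, Rpl18, was of the middle class. With all 14 libraries the median log2 change was still highest in the short class, at 0.36. It was 0.27 in the middle and 0.20 in the long class. Without wildtype libraries 2 and 3 these medians were 0.18 in the short, 0.25 in the middle and 0.28 in the long class, so the order turned round. Rpl38 showed the widest spread, with 234, 355 and 572 CPM at its lowest, median and highest in APPko libraries, against 160, 271 and 584 CPM in wildtype libraries. Across the 49 members the correlation of coding length with the wildtype spread was r = -0.52 (Spearman's rho = -0.58), and with the APPko spread r = -0.43 (rho = -0.47). These are descriptions over genes that share the same libraries.

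**Figure D5:**
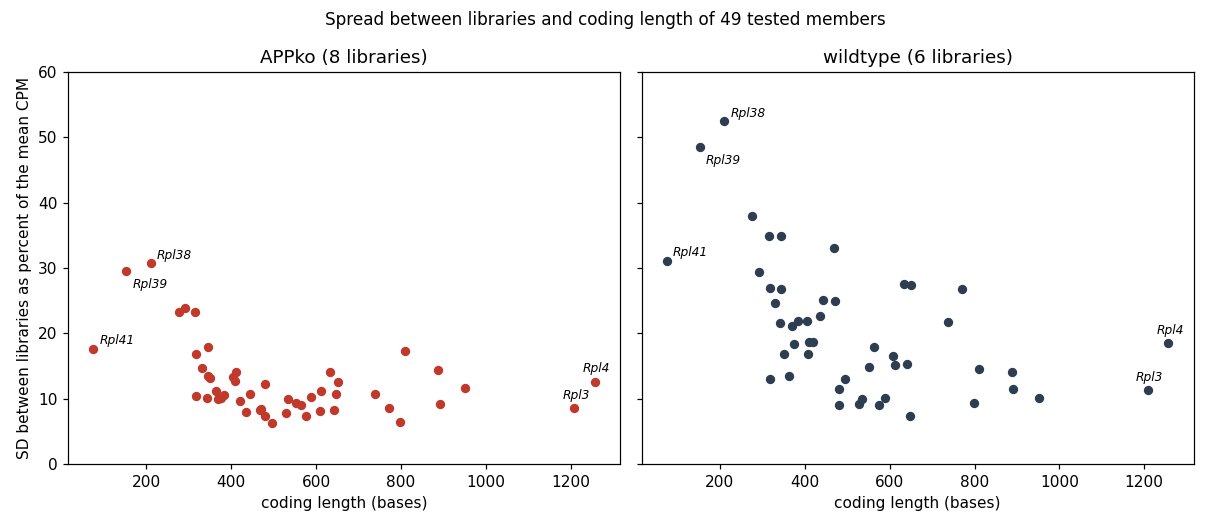
SD between libraries as a percent of the mean CPM against coding length in bases for the 49 tested members, in 8 APPko libraries (left) and 6 wildtype libraries (right). In both genotypes the widest spreads belong to short members such as Rpl38 and Rpl39, and the spread in wildtype libraries is larger in each length class.

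The column headers of the deposited tables end in f for APPko libraries 1 to 7 and wildtype libraries 1 to 3, and in m for APPko library 8 and wildtype libraries 4 to 6. No source used here explains the letters. Among f libraries alone 14 members were called higher and 1 lower, where 7.1% of all tested genes were called higher. The 9 members called with all libraries were among those called higher there. The member called lower there was Rpl23a (log2 change -0.42, edgeR adjusted p = 0.0229), where 8.47% of all tested genes were called lower. These f wildtype libraries include libraries 2 and 3. Among m libraries there was a single APPko library, so no test was made within them. That library lay above the mean of the m wildtype libraries in 36 of the 49 members, and the f mean was higher in APPko in 40 of the 49. The same shares over all tested genes are not given here, so these counts have no baseline. For Rpl18 the m APPko library had 236 CPM against a mean of 178 CPM in the m wildtype libraries, and the f libraries averaged 240 CPM in APPko against 134 CPM in wildtype. With the letter as a covariate, 13 members were called higher, where 3.24% of all tested genes were.

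The interaction of genotype and letter passed the threshold for 2 members, Rpl7 and Rpl23a, where 1.86% of all tested genes passed. Rpl7 had 861 CPM in the m APPko library against a mean of 479 CPM in the m wildtype libraries. In f libraries it averaged 589 CPM in APPko and 607 CPM in wildtype. Rpl23a had 115 CPM in the m APPko library against a mean of 73.8 CPM in the m wildtype libraries, and averaged 96.8 CPM in the f APPko libraries against 129 CPM in the f wildtype libraries. The m side of both contrasts rests on 1 APPko library.

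The sequence around the annotated start was examined because transcripts of this class are defined by how they begin. The RefSeq promoter table (build GRCm38.p6) held 40 of the 52 members, 6 of them called. Windows from 20 bases before to 20 bases after the annotated start are printed below, with the longest unbroken run of C and T in capitals, for the called members with an entry and for the lowest members with an entry. The called members come first.
Rpl18, chr7:45718051-45718090, + strand: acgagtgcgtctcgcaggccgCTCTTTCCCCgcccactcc
Rpl13, chr8:123102330-123102369, + strand: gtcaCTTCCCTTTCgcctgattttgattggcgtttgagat
Rpl14, chr9:120571497-120571536, + strand: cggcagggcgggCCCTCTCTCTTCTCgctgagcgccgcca
Rpl11, chr4:136053374-136053413, - strand: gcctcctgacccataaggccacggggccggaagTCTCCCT
Rpl27, chr11:101442225-101442264, + strand: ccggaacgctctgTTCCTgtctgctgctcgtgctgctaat
Rpl10, chrX:74270796-74270835, + strand: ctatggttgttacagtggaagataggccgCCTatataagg
Rpl35, chr2:39005112-39005151, - strand: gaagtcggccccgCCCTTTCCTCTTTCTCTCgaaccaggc
Rpl13a, chr7:45128726-45128765, - strand: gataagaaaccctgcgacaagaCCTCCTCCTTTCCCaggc
Rpl23, chr11:97782420-97782459, - strand: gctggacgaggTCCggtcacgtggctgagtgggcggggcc

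A run of 10 or more C and T within 20 bases before to 30 bases after the annotated start was present in 19 of the 40 members and in 10.1% of the 16802 genes of the table. It was present in 4 of the 6 called members. Rpl18, Rpl13 and Rpl14 show such runs above, and so do Rpl35 and Rpl13a, which were not called. The word CTTTC, searched on the sense strand in the same window, was present in 17 of the 40 members, in 2 of the 6 called members and in 6.9% of all genes. It can lie within such a run, so these counts overlap.

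Over the whole 300 bases and on both strands, CCGGAAG, the core recognised by ETS factors, was present in 15 of the 40 members and in 13.2% of all genes. GGGCGG, the GC box, was present in 27 members and in 50.7% of all genes. AAGATGGC, the core recognised by YY1, was present in 4 members and in 3.6% of all genes. Of the 6 called members, 1 held CCGGAAG, 5 held GGGCGG and 0 held AAGATGGC. These are matches of letters in a window set by the annotation, where entries with several starts count once, and they say nothing of binding.

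Genes of the same pathway were read from the same fit. Of the 33 small subunit protein genes, 6 were called higher and 0 lower, where 0.944% of all tested genes were called higher and 1.41% lower. All 33 had a log2 change above 0, and the median was 0.35. The count of 6 went to 17 without wildtype library 1 (1.7% of all tested genes called higher). It was 0 without APPko library 2, 5 or 7 or without wildtype library 3 (0.101% to 0.172%), and 0 without wildtype libraries 2 and 3 (0.08%), where 30 of the 33 stayed above 0 and the median was 0.24. It was 1 without APPko library 1, 4 or 6 or without wildtype library 2 (0.202% to 0.422%), 3 without APPko library 8 (0.709%) and 4 without wildtype library 5 (1.01%). With the GC trend or the length trend removed it was 2 (0.357% and 0.628%), with no expression filter 11 (0.616%) and with DESeq2 16 (3.33%). Rps19, a small subunit protein needed for the maturation of its ribosomal RNA, averaged 890 ± 84.0 CPM in APPko and 533 ± 152 CPM in wildtype libraries (log2 change 0.74, edgeR adjusted p = 0.0263). Rps16 averaged 340 ± 34.1 CPM in APPko and 248 ± 29.2 CPM in wildtype libraries (log2 change 0.46, edgeR adjusted p = 0.0309).

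Genes outside the cytosolic ribosome had lower medians with all 14 libraries. Of 77 tested proteins of the mitochondrial ribosome, 3 (3.90%) were called higher and 0 lower, with a median log2 change of 0.08. Over all tested genes 0.944% were called higher and 1.41% lower in this fit. The median of the mitochondrial ribosome was 0.22 without wildtype libraries 2 and 3, close to the 0.25 of the 49 members in that fit. Of 76 nuclear genes of the respiratory chain, which are also short and abundant mRNAs, 3 (3.95%) were called higher and 0 lower. Their median was -0.01, and 0.09 without wildtype libraries 2 and 3. The 3 were Atp5g2, Cox8a and Cox6a1. Cox6a1 averaged 1519 ± 144 CPM in APPko and 934 ± 275 CPM in wildtype libraries (log2 change 0.70, edgeR adjusted p = 0.0295).

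Of 21 initiation, elongation and related translation genes, 1 (4.76%) was called higher and 0 lower, where 0.944% of all tested genes were called higher. Their median was 0.04, and 0.13 without wildtype libraries 2 and 3. The called gene was Eif3k, a subunit of the initiation factor that binds the small subunit, with 219 ± 26.4 CPM in APPko and 151 ± 35.6 CPM in wildtype libraries (log2 change 0.53, edgeR adjusted p = 0.0442). Of 26 ribosome assembly genes, 0 were called in either direction by edgeR, 7 had a log2 change above 0, and the median was -0.11. Without wildtype libraries 2 and 3, 14 of the 26 were above 0 and the median was 0.03. At an unadjusted p under 0.05, 0 of these assembly genes were higher and 4 lower. By the same rule 9.07% of all tested genes were higher and 11.4% lower. Among the 4 were Dkc1, Nop58 and Rrs1 (log2 changes -0.39, -0.32 and -0.27). Without wildtype libraries 2 and 3 these changes were -0.15, -0.14 and -0.16. Of 20 genes of growth signalling, 1 (5%) was called higher and 0 lower, with a median of 0.02, and of 0.01 without wildtype libraries 2 and 3. That gene was Eif4ebp1, which encodes a translational repressor under mTOR control, with 37.0 ± 7.98 CPM in APPko and 20.2 ± 5.19 CPM in wildtype libraries (log2 change 0.87, edgeR adjusted p = 0.0252). Without wildtype libraries 2 and 3, 0 genes of these 5 lists were called.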

How the data were processed

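Per the submitters' processing notes, the tools were featureCounts 2.0.1, STAR 2.7.8a and cutadapt 3.5, and the build GRCm38 (mm10). The authors deposited 1 table of raw counts per gene symbol for each library, and a GENCODE M25 annotation. Per the labels' protocols, cDNA was amplified with 12 PCR cycles, libraries with 10, and sequenced as 151 bp pairs. The handling of multi-mapping reads and of strand is not given in the sources used here, so counts of genes with copies or antisense neighbours are uncertain: 12 members share exon bases with a gene on the other strand. Of counts from 1 to 10, 81.2% were even, so 1 fragment may count as 2. Low-count intervals would cover counting error only, and none is given.

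Counts were tested with edgeR 4.0.16 (R 4.3.3; filterByExpr by genotype, TMM, robust quasi-likelihood fit, no covariates) over 22150 genes, with Benjamini-Hochberg adjustment and genes called at 0.05. Levels in CPM carry the TMM scaling, with SDs between libraries. Copies were found with blastn 2.17.0 against GENCODE M21 transcripts (GRCm38). Alternatives used DESeq2 1.42.0 and limma 3.58.1 (voom) among 33 settings. On simulated data for this contrast (21554 genes) the fit recovered 31.8% of 1.5-fold, 63.1% of 2-fold and 95% of 4-fold changes, with 7 false calls among 21363 unchanged genes. Genes were drawn independently there, and no library stood apart as wildtype libraries 2 and 3 do. The false calls in the real data may therefore be more frequent. No pair of replicates agreed within sampling noise (chi-square per degree of freedom 7.76 to 94.1 over 43 pairs). Members named in the text are those called, the 5 lowest, the stalk and 5S genes, the paralogues, the 3 highest and 3 lowest per length and those not tested; from each list, up to 3 genes of smallest p; of the copies named after members, those called and the most abundant. Others (Rpl28, Rpl36, Rpl38, Rpl39, Rpl8, Rpl7 and the copies Gm7536 and Gm10132) were named after their values were seen. Of the called members, 1 is not reported here by name. The members and all lists were chosen with earlier results of these data known. Coding lengths come from the M25 annotation.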

Additional observations from a re-analysis of the deposited data

Results flagged for a closer look

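Of 52 groups of library values checked for a sample far from the rest, 3 held one, where chance alone flags about 5% of groups. Rpl12 stood at 247.4 CPM in wildtype library 1, with the nearest other wildtype library at 203 CPM. Rpl29 stood at 358.1 CPM and Rpl3 at 688.7 CPM in APPko library 8, with the nearest other APPko libraries at 302 CPM and 598 CPM. APPko library 8 is the one APPko library whose header ends in m.

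The interaction of genotype and header letter passed the threshold for 2 of the 49 members, where 1.86% of all tested genes did. It was 0.8881 on the log2 scale for Rpl7 (m minus f, edgeR interaction test, adjusted p = 0.0445) and 1.049 for Rpl23a (adjusted p = 0.0318). The m side holds a single APPko library, number 8, so these p-values assume that it varies like the others. The f wildtype libraries 1, 2 and 3 had 565.1, 644.5 and 611 CPM of Rpl7 and 110.9, 152.8 and 123.1 CPM of Rpl23a. A deviation of APPko library 8, one of wildtype libraries 2 and 3 and a difference between the letters cannot be told apart.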

How the results depend on the processing

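Each of the 9 called members was called in 5 to 14 of the 14 fits that left out 1 library and in 15 to 18 of the 19 other settings, and 0 members were called lower except among f libraries alone (1, Rpl23a). The median log2 change of the members stayed between 0.22 and 0.37. Counts called higher that moved by over 1.5 times follow, with the share of all tested genes called higher in brackets. Members called were 4 with the GC trend removed (0.357%), 0 with the replicate block (0.0451%) and 14 in f libraries alone (7.1%). They were 1 without wildtype libraries 2 and 3 (0.08%), 18 with DESeq2 (3.33%) and between 1 and 18 with 1 library left out (0.101% to 3.26%). Copies called were 8 with library totals alone (1.07%), 5 with named copies added to their parents (0.893%) and 6 with the length trend removed (0.628%). Their count was 7 with the GC trend removed (0.357%), 1 with the replicate block (0.0451%) and 28 with the header letter as a covariate (3.24%). It was 56 in f libraries alone (7.1%), 0 without wildtype libraries 2 and 3 (0.08%) and 33 with DESeq2 (3.33%). With voom it was 7 (0.822%), and with 1 library left out between 4 and 27 (0.101% to 3.26%). The cause was not tested.

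Members near 0 changed sign. With library totals alone, which moved the median of all genes to 0.08, log2 changes were 0.051 (Rpl13a), 0.062 (Rpl35), 0.076 (Rpl3) and 0.090 (Rpl23a). With no filter they were 0.0073 (Rpl23a), 0.011 (Rpl35), 0.012 (Rpl13a) and 0.016 (Rpl3). With voom they were 0.0053 (Rpl35), 0.028 (Rpl3) and 0.18 (Rpl23a). Without wildtype libraries 2 and 3 they were -0.026 (Rpl24), 0.066 (Rpl3) and 0.26 (Rpl23a). Adding named copies gave 0.030 for Rpl13a, and adding copies by sequence, an alternative chosen after seeing the data, gave 0.25 for Rpl13a and 0.13 for Rpl23a. The GC trend removed gave -0.053 (Rpl23), 0.025 (Rpl23a) and -0.0069 (Rplp1). Rpl23 was at -0.0052 with RLE scaling, -0.0052 with DESeq2, -0.079 with the length trend removed, -0.047 with the header letter and -0.21 in f libraries alone, and Rpl24 at -0.038 when thinned. With 1 library left out, log2 changes ranged from -0.072 to 0.044 (Rpl13a), -0.057 to 0.10 (Rpl23), -0.13 to 0.12 (Rpl23a), -0.068 to 0.041 (Rpl3) and -0.10 to 0.096 (Rpl35).

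The labels' replicate numbers were not taken as pairs: deviations of same-numbered libraries correlated between -0.34 and 0.19, and 3 of 6 APPko libraries correlated best with their own number. Column headers restart at 1 for the m libraries. Their 4 shared numbers correlated between -0.34 and 0.18, with -0.097 for the m pair. With the replicate block 0 members, 0 small subunit genes and 1 copy were called higher (0.0451% of all genes), Rpl23 stood at -0.038 and Rpl35 at 0.022, and the members' median was 0.28.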
